A study of Mus musculus with 75 samples.

Results

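The lysophosphatidic acid (LPA) pathway was followed in the lungs of bleomycin-treated mice through 8 genes: Enpp2, the receptor genes Lpar1, Lpar2, Lpar3, Lpar4, Lpar5 and Lpar6, and Plpp3. The members were found by their Ensembl release 96 symbols, and all 8 were present among the 55536 genes of the count table. All 8 passed the filter on low counts, which left 16221 genes for testing. RNA came from the right inferior lung lobe of 75 C57BL/6JRj mice, all male and aged 12 to 14 weeks. Pulmonary fibrosis had been induced by a single intratracheal dose of bleomycin, an antibiotic that injures the alveolar epithelium, at 1.5 mg/kg (BLEO-IPF). BLEO-IPF mice were terminated on day 7 (n = 10), day 14, 21, 28 or 35 (n = 12 on each) or day 42 (n = 7), and only mice that had lost 5 to 17% of their body weight by day 6 were allocated to a termination day. The 10 CTRL mice received saline according to their sample label, and the paper's legend for the RNA data describes it as intratracheal. The protocol text calls the controls untreated, so that the sources differ on whether CTRL includes the instillation itself. The day of their termination is not given in the sources used here, and the same 10 mice are the reference for every day, so that comparisons with CTRL are not independent of each other. Each mouse gave 1 library with 9240291 to 14665247 counted reads, and group medians lay between 10231079 and 11267629.5. Lung identity was clear from the alveolar type 2 (AT2) list, whose 7 genes including the surfactant gene Sftpc summed to 22209 to 27087 CPM in CTRL, where CPM are a gene's reads scaled to the same total in every library. In whole lung tissue, fewer cells of a type and less RNA per cell cannot be told apart.

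LPA is a small signaling phospholipid of blood and tissue fluid. Enpp2 encodes autotaxin, the secreted enzyme that makes most extracellular LPA by cleaving the head group from lysophosphatidylcholine. The 6 receptors are G protein-coupled. LPA1, LPA2 and LPA3 belong to the endothelial differentiation gene family, and LPA4, LPA5 and LPA6 are closer to the purinergic P2Y receptors. Several of them act through G12 and G13 proteins on the actin cytoskeleton. Plpp3 encodes a membrane phosphatase (lipid phosphate phosphatase 3) that ends the signal by removing the phosphate from extracellular LPA. In lung fibrosis the pathway is known mainly through LPA1, which drives fibroblast migration and vascular leak after bleomycin, and through autotaxin, which has been a drug target in idiopathic pulmonary fibrosis.

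In the GRCm38 build, Enpp2 (ENSMUSG00000022425) spans chr15:54838901-54952892 on the minus strand and Plpp3 (ENSMUSG00000028517) chr4:105157347-105232764 on the plus strand. Lpar1 (ENSMUSG00000038668) lies at chr4:58435255-58553898 on the minus strand. The other receptor genes are on the plus strand: Lpar2 (ENSMUSG00000031861) at chr8:69822429-69831102, Lpar3 (ENSMUSG00000036832) at chr3:146220963-146286186, Lpar4 (ENSMUSG00000049929) at chrX:106920625-106933900, Lpar5 (ENSMUSG00000067714) at chr6:125067920-125082472 and Lpar6 (ENSMUSG00000033446) at chr14:73237895-73243294. No stretch of 75 bases of any member transcript occurred in the transcripts of another gene on the same strand, so that the 6 receptors can be counted apart. Lpar6 is a single exon within the bounds of Rb1, which is read from the opposite strand. The 2 genes share 408 exon bases, 5.13% of the 75-base stretches of Lpar6 also occur in Rb1 transcripts in the reverse direction, and Rb1 collected 284% as many counts as Lpar6. The libraries keep the strand, but whether the counting used it is not given in the sources used here.

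Promoter sequence is shown for the members with the deepest fall (Lpar3), the fall seen on every day (Plpp3) and the most lasting rise (Lpar6). Each is the 250 bases before the RefSeq start site in GRCm38.p6, on the plus strand, 5′ to 3′, and none of them touches an annotated exon. They are chr3:146220711-146220960 for Lpar3, chr4:105157097-105157346 for Plpp3 and chr14:73237641-73237890 for Lpar6. Capitals mark matches, on either strand, to 5 motifs: TATAAA (the core box bound by TBP), GGGCGG (GC box), CCAAT (bound by NF-Y), GGAATG (the site of TEAD, the partner of YAP) and TGANTCA (AP-1).
Lpar3: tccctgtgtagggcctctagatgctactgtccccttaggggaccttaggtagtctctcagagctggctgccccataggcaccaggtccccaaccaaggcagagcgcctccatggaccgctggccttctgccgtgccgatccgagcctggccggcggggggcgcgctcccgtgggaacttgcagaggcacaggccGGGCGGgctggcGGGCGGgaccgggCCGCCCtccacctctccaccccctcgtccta
Plpp3: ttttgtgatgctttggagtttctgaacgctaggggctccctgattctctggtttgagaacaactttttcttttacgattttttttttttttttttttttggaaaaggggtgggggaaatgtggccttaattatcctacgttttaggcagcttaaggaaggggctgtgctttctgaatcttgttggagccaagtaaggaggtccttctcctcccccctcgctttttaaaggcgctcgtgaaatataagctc
Lpar6: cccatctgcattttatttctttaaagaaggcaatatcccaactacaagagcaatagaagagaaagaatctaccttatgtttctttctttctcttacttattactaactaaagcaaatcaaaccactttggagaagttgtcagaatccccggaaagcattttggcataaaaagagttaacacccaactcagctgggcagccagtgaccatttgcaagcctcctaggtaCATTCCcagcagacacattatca
The Lpar3 stretch held 3 GC boxes within 56 bases of the start, and 32.7% of 32851 mouse promoters of the same length held at least 1. GC box matches also occurred in stretches of Lpar1, Lpar2, Lpar4 and Lpar5, which are not printed, so that the motif was not particular to Lpar3. The Lpar6 stretch held 1 match to GGAATG on the minus strand, 23 to 18 bases before the start, and 12.6% of promoters held this motif. None of the 5 motifs was found in the Plpp3 stretch. These matches describe letters only. Enpp2 had no entry in the promoter table.

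All comparisons with CTRL used the edgeR quasi-likelihood F test with Benjamini-Hochberg adjustment over the 16221 genes, and a gene was called at an adjusted p below 0.05. Of 48 comparisons of a member with CTRL (8 genes on 6 days), 28 were called, 10 higher and 18 lower in BLEO-IPF mice. On day 7, 5 of 8 members were called (1 higher, 4 lower), when 45.8% of all genes were called (24.9% higher, 20.9% lower). On day 14 all 8 were called (4 higher, 4 lower) against 62.4% of all genes (32.4% higher, 29.9% lower), and on day 21 it was 6 (2 higher, 4 lower) against 54.2% (28.3% higher, 25.8% lower). On day 28 it was 3 (1 higher, 2 lower) against 43.3% (24.1% higher, 19.2% lower). On day 35 it was 2 (1 higher, 1 lower) against 29.9% (16.9% higher, 13.1% lower), and on day 42 it was 4 (1 higher, 3 lower) against 24.7% (13.7% higher, 11.0% lower). The members' median log2 fold change lay between -0.35 on day 42 and -0.08 on day 28, and that of all genes was highest on day 28, at 0.02. The members went in opposite directions: Enpp2, Plpp3, Lpar3 and Lpar4 were below CTRL on all 6 days, Lpar2, Lpar5 and Lpar6 above, and Lpar1 changed sign.

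**Figure D1:**
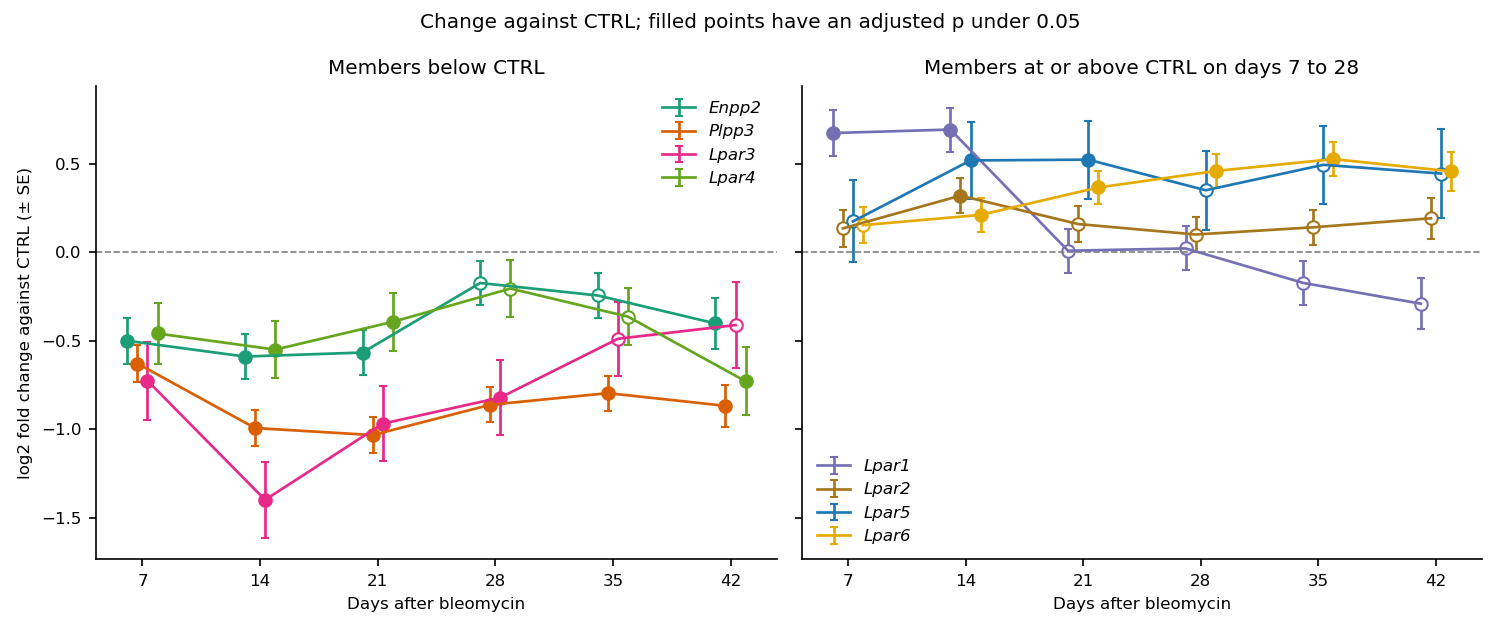
The log2 fold change against the 10 CTRL mice (y axis, ± SE of the edgeR fit) is plotted by day after bleomycin (x axis) for the members below CTRL (left) and the other members (right). Filled points have an adjusted p below 0.05. Lpar3 reached -1.40 on day 14 and was at -0.41 on day 42, Plpp3 stayed between -0.63 and -1.03, and Lpar1 went from 0.69 on day 14 to 0.01 on day 21 as Lpar6 climbed to 0.53 on day 35.

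Plpp3, the LPA phosphatase, showed the most uniform change of the 8 genes. In CTRL it ranged from 297 to 409 CPM with a median of 339.6. On day 7 it ranged from 191 to 263 CPM (median 228), on day 14 from 151 to 211 (median 172), with day 21 at 130.5 to 224 (median 159). The highest of all 65 BLEO-IPF mice, at 278 CPM on day 28, was below the lowest CTRL mouse. Such a complete separation on all 6 days, with every BLEO-IPF mouse below every CTRL mouse, occurred in 0.302% of the genes tested. Plpp3 fell by 0.63 ± 0.10 (log2, SE) on day 7 (adjusted p = 1.07e-06) and by 0.99 ± 0.10 on day 14 (adjusted p = 2.12e-13), which is 0.502-fold of CTRL (95% interval 0.439 to 0.575). The step from day 7 to day 14 was itself a fall, by 0.36 ± 0.10 (adjusted p = 0.00713, with 17.0% of all genes called between these days, 7.55% lower). Plpp3 did not return during the study: on day 42 it ranged from 159 to 249.6 CPM (median 178), 0.548-fold of CTRL (0.467 to 0.642, adjusted p = 4.72e-08). The difference between day 42 and day 14 was 0.13 ± 0.11 (adjusted p = 0.391).

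Beside this fall, the list of 7 fibroblast markers (Pdgfra, Tcf21, Npnt, Dpt, Pi16, Inmt and Scube2) was lower in BLEO-IPF mice. Its summed level was 3420 to 4296 CPM in CTRL, 1958 to 3066 on day 7, 1398 to 2465 on day 14 and 1220 to 2883 on day 21. On days 28, 35 and 42 it was 1434 to 3408, 1409 to 3167 and 1797 to 3400.0 CPM. On day 14, 5 of the 7 genes were called lower and 2 higher, and no marker of the list was at 0 in any group. Across the 75 mice, after each group's mean was subtracted, Plpp3 deviated together with the mean of this list (Pearson r = 0.84, Spearman coefficient 0.80, and r = 0.81 without the 2 mice farthest from the median of Plpp3). The permutation p within groups was 1e-05, the smallest that 100000 permutations can give, and 0.000109 after adjustment over 152 relations of 8 members with 19 marker lists. Other lists were related to Plpp3 with the same permutation p and adjusted value. They were monocyte-derived macrophages (r = -0.73), matrix-producing fibroblasts (r = -0.68) and club and ciliated cells (r = 0.59), all described below. The transitional epithelium list (Krt8, Cldn4, Sfn, Krt19 and Sprr1a) was another (r = -0.67). Weaker positive relations had an adjusted permutation p of 0.0028 to 0.047. They were with the endothelial (r = 0.46), muscle (r = 0.42), fat marker (r = 0.41), AT2 (r = 0.34) and B and plasma cell lists (r = 0.30). The part of the fibroblast markers or of these other cell types in the fall of Plpp3 was not tested.

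Enpp2, the LPA-producing enzyme, was lower in BLEO-IPF mice during the first 3 weeks. It ranged from 109 to 143 CPM in CTRL (median 128), from 65.7 to 102 on day 7 (median 91.4) and from 70.2 to 101 on day 14 (median 80.7). All mice of days 7 and 14 were below all CTRL mice, as was found in the lower direction for 3.8% of genes on day 7 and 6.15% on day 14. Enpp2 fell by 0.50 ± 0.13 on day 7 (adjusted p = 0.00126), by 0.59 ± 0.13 on day 14 (adjusted p = 4.14e-05) and by 0.57 ± 0.13 on day 21 (adjusted p = 0.000105). The values were higher on the later days. On day 35 Enpp2 ranged from 88.0 to 129.7 CPM (median 108), with a log2 fold change of -0.24 ± 0.13 (adjusted p = 0.133), and on day 42 from 75.4 to 106 (median 97.4). The 7 mice of day 42 were again below all CTRL mice, and the fall of 0.40 ± 0.15 was called (adjusted p = 0.0345). That call was lost in 4 of 75 refits without a single mouse (CTRL replicate 7 or 8 or day 42 replicate 1 or 7, adjusted p 0.0517 to 0.0855).

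On day 28 the Enpp2 result rested on 1 library. Replicate 10 held 310.4 CPM of Enpp2, more than any other of the 75 mice (143 CPM at most), whereas the other 11 mice of that day ranged from 80.2 to 122 CPM (94.1 ± 13.3, mean ± SD). The same library held the highest levels in the study of the adipocyte genes Adipoq (195 CPM, up to 3.33 in the other 11 mice), Plin1 (173 CPM) and Cidec (230 CPM), and of the muscle genes Ckm (247 CPM), Acta1 (584 CPM) and Myh6 (771 CPM). Adipocytes are a known source of autotaxin. With this library in the fit, the day 28 log2 fold change was -0.17 ± 0.13 (adjusted p = 0.265). Day 7 replicate 8 also held fat markers (66.3 CPM of Adipoq) and had the highest Enpp2 of its group. A fit of 73 mice without these 2 libraries, added after the data had been seen, gave a fall by 0.42 ± 0.08 on day 28 (adjusted p = 1.59e-05). In that fit the fall was 0.24 ± 0.08 on day 35 (adjusted p = 0.0132) and 0.40 ± 0.09 on day 42 (adjusted p = 0.000671), so that Enpp2 was then called on all 6 days.

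The 6 fat markers (Adipoq, Plin1, Cidec, Lep, Ucp1 and Cidea) were also lower in most BLEO-IPF mice. Their sum was 8.33 to 23.3 CPM in CTRL (median 16.1), 3.78 to 202 on day 7 (median 6.92), 1.2 to 8.88 on day 14 (median 3.24) and 1.43 to 9.21 on day 21 (median 4.24). It was 1.93 to 624 on day 28 (median 5.85), 3.16 to 13.8 on day 35 (median 5.05) and 2.22 to 8.05 on day 42 (median 4.03). In CTRL, Cidec alone was at 7.7 to 14.6 CPM, with Adipoq at 0.159 to 3.65 and Plin1 at 0.159 to 4.64, so that Cidec weighed most in the sum. Of the 4 markers that could be tested, 2 were called lower on day 14 and 4 on day 21, and 1 of the 6 was at 0 in all mice of day 21. Within groups, Enpp2 deviated together with the mean of this list (r = 0.76, Spearman coefficient 0.62, permutation p = 1e-05, adjusted 0.000109). Without the 2 mice farthest from the median of Enpp2 the r was 0.58. By that measure the fibroblast list, which was also lower in BLEO-IPF mice, was as close (r = 0.57, and r = 0.52 with Spearman coefficient 0.58 over all mice, permutation p = 2e-05, adjusted 0.00019). Enpp2 went against the transitional epithelium list (r = -0.56, and -0.45 without the 2 farthest mice). So it did with the matrix-producing fibroblast (r = -0.53, and -0.50) and monocyte-derived macrophage lists (r = -0.44, and -0.41). It deviated together with the B and plasma cell (r = 0.51, and 0.39) and muscle lists (r = 0.42, and 0.30). The adjusted permutation p of these was 0.00019 to 0.00789. The part of fat tissue, fibroblasts or these other cell types in the lower Enpp2 of BLEO-IPF mice was not tested.

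**Figure D2:**
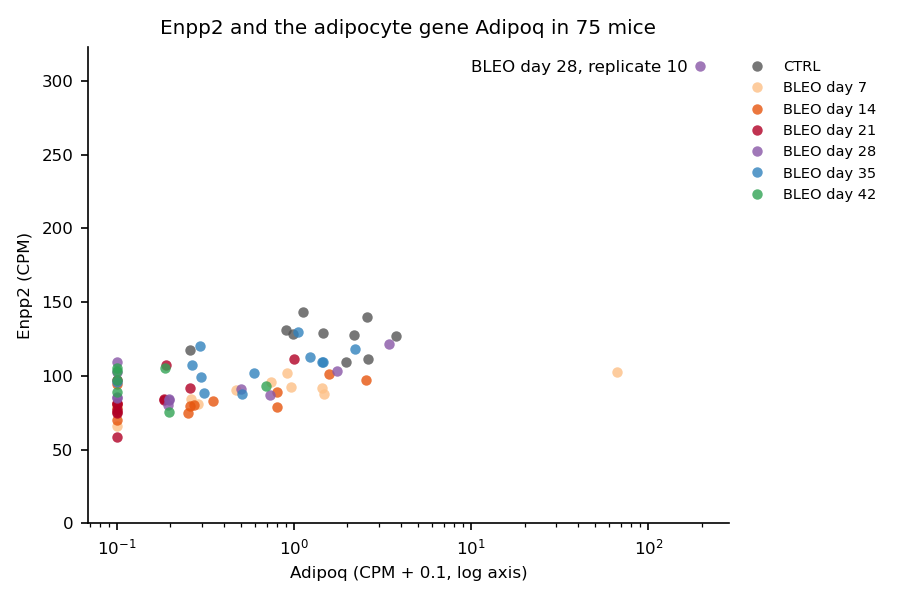
Each point is 1 mouse, coloured by group, with Adipoq (x axis, CPM plus 0.1, log axis) against Enpp2 (y axis, CPM). Day 28 replicate 10 lies apart at 195 CPM of Adipoq and 310.4 CPM of Enpp2, and day 7 replicate 8 is the other mouse to the right, at 66.3 and 102 CPM.

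Lpar1, the receptor known for its role in bleomycin fibrosis, was raised early and only transiently. In CTRL it ranged from 27.5 to 35.6 CPM (median 31.4). On day 7 it ranged from 40.9 to 69.4 CPM (median 47.8), so that all 10 mice were above all CTRL mice, as for 7.39% of genes in that direction. On day 14 the range widened to 27.02 to 74.9 CPM (median 47.4), with 11 of 12 mice above CTRL and 1 below, and the coefficient of variation was 30.1% against 7.7% in CTRL. Lpar1 rose by 0.67 ± 0.13 on day 7 (1.6-fold, 95% interval 1.34 to 1.9, adjusted p = 1.69e-05) and by 0.69 ± 0.12 on day 14 (1.62-fold, 1.37 to 1.92, adjusted p = 2.13e-06). On day 21 it ranged from 25.2 to 39.8 CPM (median 29.3) and overlapped with CTRL, with a log2 fold change of 0.01 ± 0.12 (1.01-fold, 0.849 to 1.19, adjusted p = 0.958). The fall from day 14 to day 21, by 0.69 ± 0.12, was called (adjusted p = 0.000849) when only 1.03% of all genes were called between these days. In a fit of these 2 groups alone its adjusted p was 0.09. On day 28, 2 mice stood above the rest of their group, at 48.7 and 51.7 CPM, while the group's median was 28.6. On day 42 all values were between 20.6 and 28.1 CPM (median 26.96), and 6 of 7 mice were below every CTRL mouse. The log2 fold change of -0.29 ± 0.15 against CTRL was not called (adjusted p = 0.133), but was called in a fit of these 2 groups alone (adjusted p = 0.00189). That fit called 5997 of 15066 genes, against 4001 of 16221 in the fit of all groups. Day 42 was lower than day 14 by 0.98 ± 0.14 (0.505-fold, adjusted p = 2.32e-07, with 18.8% of all genes called lower).

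Lpar1 returned to the CTRL range while matrix genes were still high. The 7 genes of the matrix-producing fibroblast list (Col1a1, Col3a1, Cthrc1, Postn, Tnc, Fn1 and Lox) summed to 1836 to 2541 CPM in CTRL, 4239 to 8589 on day 7, 6084 to 23002 on day 14 and 4282 to 20105 on day 21. They summed to 3145 to 15391 CPM on day 28, 3440 to 9996 on day 35 and 2822 to 5625 on day 42. All 7 were called higher on days 14 and 21, and none was at 0 in any group. Within groups, mice with more Lpar1 had higher levels of this list (r = 0.51, Spearman coefficient 0.40, r = 0.45 without the 2 farthest mice, permutation p = 7e-05, adjusted 0.00056). The relation with the AT2 list was the strongest of Lpar1 and had the opposite sign (r = -0.73, Spearman coefficient -0.61, r = -0.66 without the 2 farthest mice, permutation p = 1e-05, adjusted 0.000109). The AT2 list summed to 22209 to 27087 CPM in CTRL, 16715 to 28642 on day 7, 6212 to 23100 on day 14, 9764 to 29765 on day 21, 10852 to 30244 on day 28, 15097 to 28647 on day 35 and 23770.4 to 29960.0 on day 42, and 6 of its 7 genes were called lower on day 14. Lpar1 was also related to the alveolar type 1 list (r = -0.65, Spearman coefficient -0.59, r = -0.58 without the 2 farthest mice) and to the lymphatic endothelium list (r = 0.52, Spearman coefficient 0.51, r = 0.53 without them), each with permutation p = 1e-05, adjusted 0.000109. The alveolar type 1 list summed to 5203 to 6818 CPM in CTRL and 3525 to 5739 on day 14, with 4 of 7 genes called lower. The lymphatic list summed to 476 to 669 CPM in CTRL (median 539) and 339 to 1151 on day 14 (median 450). Its median sum was thus lower on day 14, although 2 of its 4 genes were called higher. Further relations of Lpar1 had an adjusted permutation p of 0.00598 to 0.047. They were positive for the smooth muscle and pericyte (r = 0.41), monocyte-derived macrophage (r = 0.39), neutrophil (r = 0.34) and transitional epithelium lists (r = 0.33). They were negative for the dendritic cell (r = -0.46), fibroblast (r = -0.36) and endothelial lists (r = -0.34). The part of these cell types in the Lpar1 values was not tested.

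Lpar3, encoding a receptor that couples to Gi and Gq proteins, was the most abundant LPA receptor RNA of CTRL lungs per exon length and fell the most. It ranged from 21.7 to 36.03 CPM in CTRL (median 27.2), from 9.73 to 23.2 on day 7 (median 16.4) and from 5.92 to 18.2 on day 14 (median 7.66). No mouse of day 14 reached the CTRL range, but the group was split, with 8 mice between 5.92 and 8.8 CPM and 4 between 14.96 and 18.2. Groups that do not overlap in this direction were found for 6.15% of genes on that day. Lpar3 fell by 0.73 ± 0.22 on day 7 (adjusted p = 0.00502) and by 1.40 ± 0.21 on day 14 (0.379-fold, 95% interval 0.284 to 0.506, adjusted p = 5.76e-08). It ranged from 7.51 to 24.5 CPM on day 21 (median 14.2) and from 5.52 to 27.1 on day 28 (median 14.2), and both days were still called lower, by 0.97 ± 0.21 (adjusted p = 8.14e-05) and 0.82 ± 0.21 (adjusted p = 0.00107). On day 35 the range was 10.4 to 31.7 CPM (median 18.5) with a log2 fold change of -0.49 ± 0.21 (adjusted p = 0.0666), and on day 42 it was 13.5 to 29.6 (median 19.7) with -0.41 ± 0.24 (adjusted p = 0.212). Both were called in fits of the 2 groups alone (adjusted p = 0.00529 and 0.0125). Those fits called 5562 of 15019 genes on day 35 and 5997 of 15066 on day 42. With all groups it was 4853 and 4001 of 16221. Between day 14 and day 42 Lpar3 rose 1.98-fold (1.44 to 2.72, adjusted p = 0.000692, with 15.2% of all genes called higher).

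The time course of Lpar3 was accompanied by that of airway epithelial genes. The club and ciliated cell list (the secretoglobins Scgb1a1 and Scgb3a2 and the cilia genes Foxj1, Ccdc153, Tppp3 and Dynlrb2) summed to 18773 to 25548 CPM in CTRL, 6687 to 19507 on day 7, 2249 to 14854 on day 14 and 4998 to 15237 on day 21. The sums were 3392 to 18271 on day 28, 9193 to 21610 on day 35 and 11827 to 18889 on day 42. On days 14, 21 and 28 all 6 genes were called lower, on days 35 and 42 only 1 was, and no gene was at 0 in any group. Within groups, Lpar3 deviated together with the mean of this list (r = 0.85, Spearman coefficient 0.82, r = 0.82 without the 2 farthest mice, permutation p = 1e-05, adjusted 0.000109). It did so with the AT2 list (r = 0.75, Spearman coefficient 0.77) and the fibroblast list (r = 0.74, Spearman coefficient 0.70) as well. The opposite direction was found for the matrix-producing fibroblast list (r = -0.79, Spearman coefficient -0.78) and the monocyte-derived macrophage list (r = -0.65, Spearman coefficient -0.65). Each had the same permutation p and adjusted value. Weaker relations had an adjusted permutation p of 0.00076 to 0.0388. They were positive for the alveolar type 1 (r = 0.52), endothelial (r = 0.38) and dendritic cell lists (r = 0.33). They were negative for the transitional epithelium (r = -0.48), lymphatic endothelium (r = -0.47) and smooth muscle and pericyte lists (r = -0.34). Which cells carried the Lpar3 transcript was not tested.

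**Figure D3:**
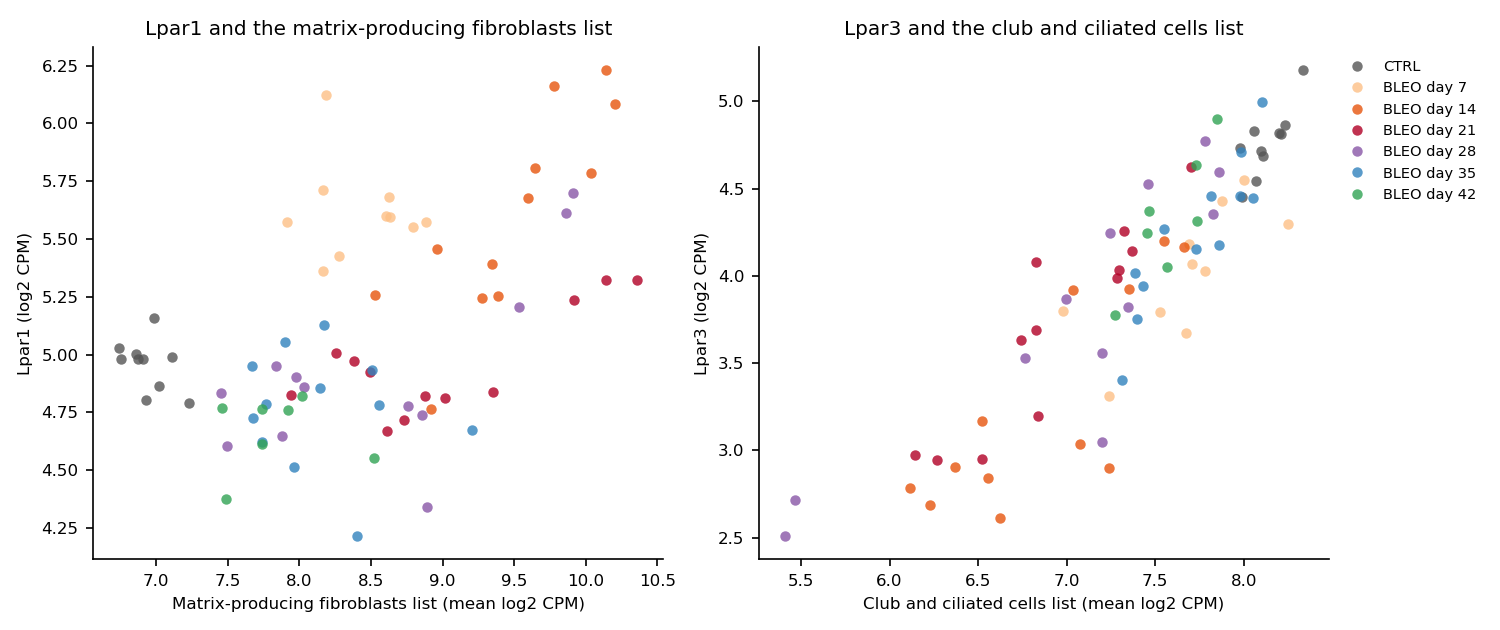
Each point is 1 mouse, coloured by group, with Lpar1 against the matrix-producing fibroblast list (left) and Lpar3 against the club and ciliated cell list (right), as log2 CPM, the lists as the mean over their genes. The within-group r was 0.51 on the left and 0.85 on the right.

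Lpar6, a receptor of the P2Y-like branch known from endothelial and hair follicle biology, rose slowly and stayed up. It ranged from 13.3 to 19.9 CPM in CTRL (median 17.0) and from 16.2 to 20.4 on day 7 (median 19.6), a log2 fold change of 0.15 ± 0.10 (adjusted p = 0.207). On day 21 it ranged from 19.3 to 24.8 CPM (median 21.4), with day 28 at 19.1 to 27.5 (median 22.5), with 11 of 12 mice above all CTRL mice on each day. On day 35 the range was 16.1 to 32.7 CPM (median 24.3), and on day 42 it was 18.8 to 28.7 (median 22.997), with 6 of 7 mice above CTRL. Lpar6 rose by 0.37 ± 0.10 on day 21 (adjusted p = 0.000921), 0.46 ± 0.10 on day 28 (adjusted p = 8.24e-05), 0.53 ± 0.10 on day 35 (1.44-fold, 95% interval 1.26 to 1.64, adjusted p = 1.41e-05) and 0.46 ± 0.11 on day 42 (adjusted p = 0.00119). The day 14 value of 0.21 ± 0.10 was just inside the threshold (adjusted p = 0.0494) and was lost in 55 of 75 refits without a single mouse and in 6 of 7 other settings. The day 14 mice ranged from 10.4 to 24.02 CPM (median 21.1), with 7 above and 1 below all CTRL mice.

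The other receptors moved less. Lpar2, which couples to Gi, Gq and G12 or G13 proteins, ranged from 6.92 to 12.3 CPM in CTRL (median 9.5) and from 9.69 to 20.5 on day 14 (median 11.0). It was called on day 14 only, at 0.32 ± 0.10 (1.25-fold, 95% interval 1.09 to 1.43, adjusted p = 0.0042), with 2 of 12 mice above the CTRL range. Its other days lay between 0.10 and 0.19, with adjusted p from 0.173 to 0.438. Lpar4, a receptor that can raise cyclic AMP and is known from blood vessel development, was counted with only 7 to 52 reads per library. It ranged from 2.08 to 4.18 CPM in CTRL (median 2.77), 1.59 to 2.55 on day 14 (median 1.82) and 1.3 to 2.07 on day 42 (median 1.68), where all 7 mice were below CTRL as for 3.37% of genes in that direction. Lpar4 fell by 0.46 ± 0.17 on day 7 (adjusted p = 0.0223), 0.55 ± 0.16 on day 14 (adjusted p = 0.00265), 0.39 ± 0.16 on day 21 (adjusted p = 0.035) and 0.73 ± 0.19 on day 42 (0.603-fold, 0.464 to 0.784, adjusted p = 0.00368). The day 7 call was lost without CTRL replicate 6 (adjusted p = 0.0631), and the day 21 call in 6 of 75 refits without a single mouse (adjusted p 0.0507 to 0.0992). Lpar5, a receptor found on immune cells and platelets among others, was the scarcest member by CPM, with 5 to 35 reads per library. It ranged from 0.556 to 1.62 CPM in CTRL (median 0.943), 1.01 to 2.51 on day 14 (median 1.38) and 1.0 to 2.08 on day 21 (median 1.51). It was called on day 14 (0.52 ± 0.22, adjusted p = 0.0348) and on day 21 (0.52 ± 0.22, adjusted p = 0.0383), and these calls were lost in 9 and 11 of the 75 refits.

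**Figure D4:**
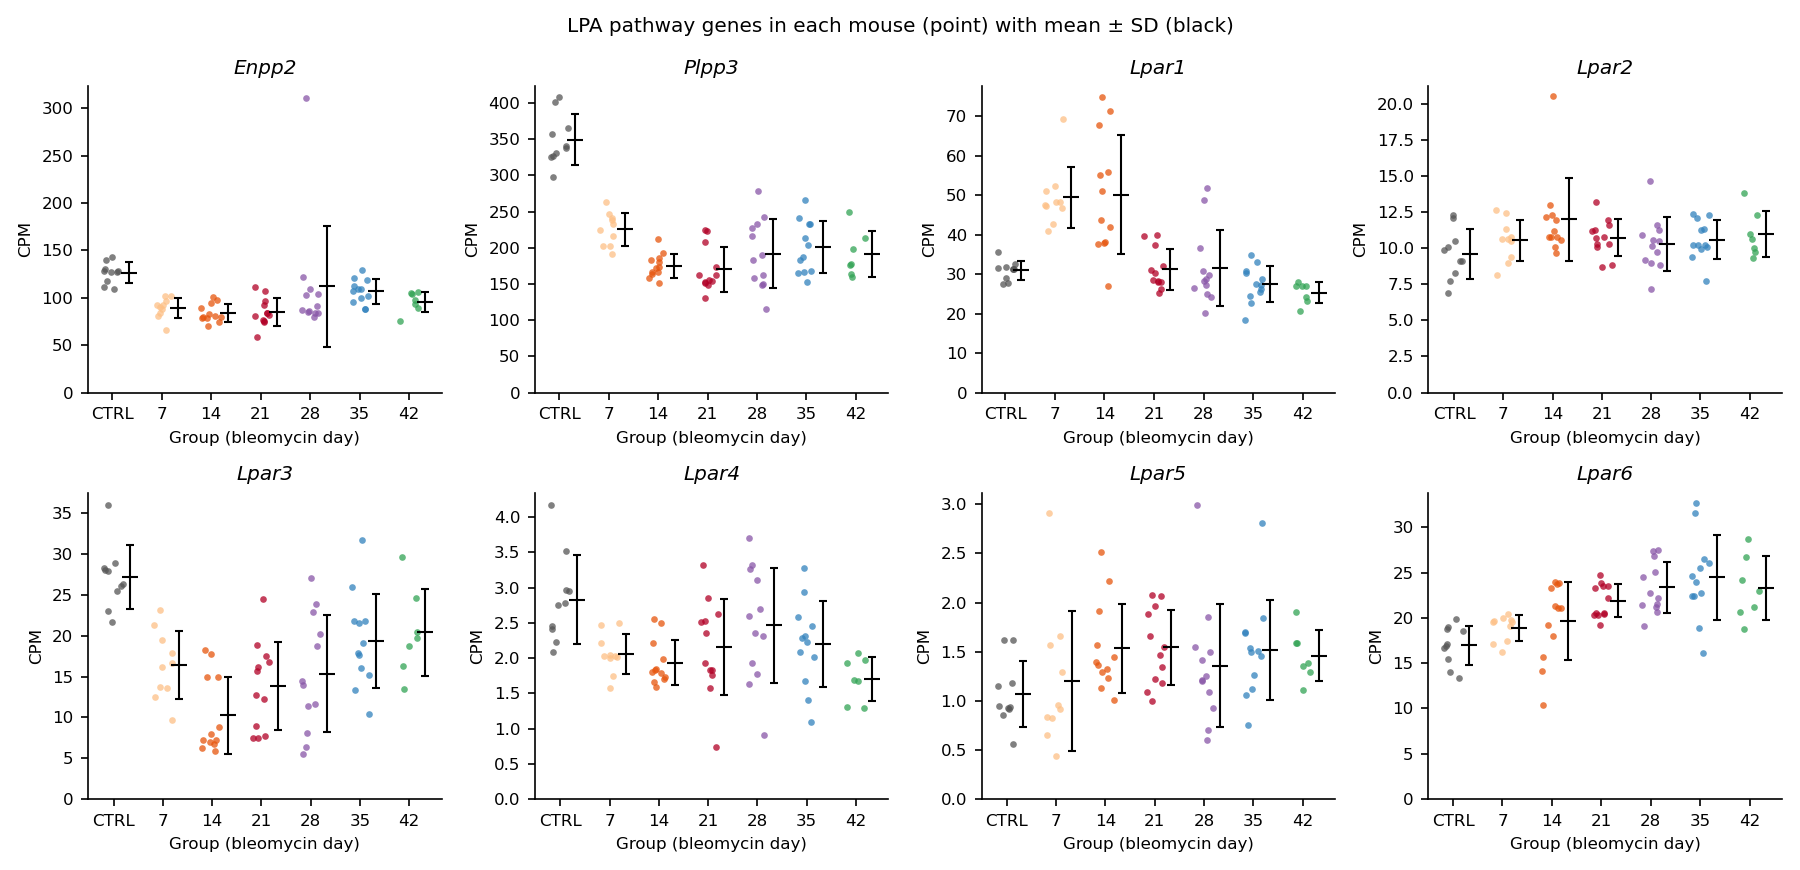
CPM (y axis, from 0) of each member in every mouse (points) by group (x axis), with mean ± SD in black, n = 10, 10, 12, 12, 12, 12 and 7. All 65 BLEO-IPF mice lie below CTRL for Plpp3, 1 mouse of day 28 stands at 310.4 CPM of Enpp2, and the Lpar1 values of days 7 and 14 lie mostly above the CTRL range of 27.5 to 35.6 CPM.

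The receptor makeup and the summed receptor RNA are given as descriptions. Levels were set per kilobase of exon (RPKM) to compare genes, and no test was run on the shares or sums. The 6 receptors summed to 24.4 ± 1.82 RPKM in CTRL (mean ± SD, n = 10), 24.8 ± 1.71 on day 7 (n = 10), 23.03 ± 2.5 on day 14 (n = 12) and 20.3 ± 1.84 on day 21 (n = 12). They summed to 21.1 ± 2.39 on day 28 (n = 12), 22.1 ± 2.47 on day 35 (n = 12) and 21.8 ± 2.28 on day 42 (n = 7), so that the means from day 14 on were below the CTRL mean. Lpar3 made up 45.02 ± 3.36% of the sum in CTRL, 26.8 ± 6.23% on day 7 and 18.4 ± 8.7% on day 14, and Lpar1 made up 29.7 ± 2.9%, 46.5 ± 6.12% and 50.2 ± 11.3%. Per exon length the order of these 2 receptors was thus reversed from CTRL to day 14. The lowest Lpar1 share of day 14 (31.8%) was above the highest Lpar3 share (31.3%). By CPM, which takes no account of length, Lpar1 was above Lpar3 in CTRL already (median 31.4 against 27.2). The reversal therefore depends on the annotated exon lengths. On day 42 the shares of Lpar3 (37.6 ± 6.0%, n = 7) and Lpar1 (27.3 ± 3.3%) were again in the CTRL order, with Lpar6 at 20.1 ± 3.87% against 12.9 ± 1.67% in CTRL. Lpar2 stayed between 6.72 and 9.1% on average, and Lpar4 and Lpar5 between 1.89 and 5.01%. Per exon length the order in CTRL was Plpp3 (median 107 RPKM), Enpp2 (22.2), Lpar3 (11.0), Lpar1 (7.33), Lpar6 (3.16), Lpar2 (1.63), Lpar4 (0.653) and Lpar5 (0.622). The CTRL ranges of Lpar4 (0.491 to 0.986) and Lpar5 (0.367 to 1.07) overlapped, and those of the other neighbours did not. The ratio of the phosphatase to the producing enzyme, Plpp3 over Enpp2 per exon length, was 5.06 ± 0.362 in CTRL, 4.68 ± 0.734 on day 7, 3.83 ± 0.335 on day 14 and 3.67 ± 0.478 on day 42.

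**Figure D5:**
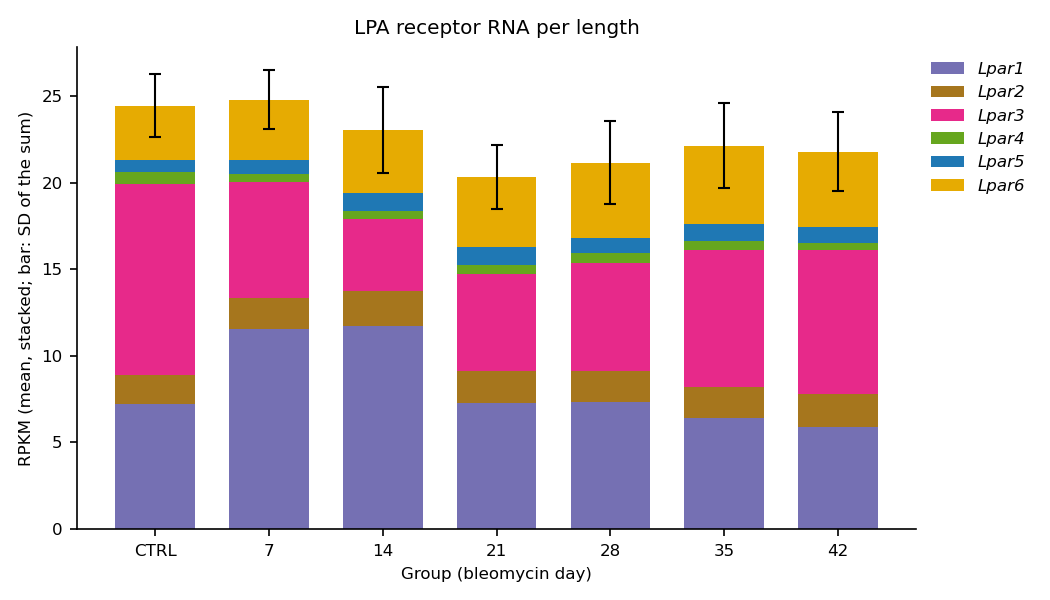
Stacked bars give the mean RPKM of each LPA receptor by group, and the error bar is the SD of the 6-gene sum. From CTRL to day 14 the Lpar3 layer shrinks from 45.02 to 18.4% of the sum and the Lpar1 layer grows from 29.7 to 50.2%, and on day 42 they stand at 37.6 and 27.3%.

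Over the 6 BLEO-IPF days, 5 members differed (Enpp2, Lpar1, Lpar3, Lpar6 and Plpp3), when 48.3% of all genes did. The adjusted p was 3.04e-11 for Lpar1, 0.00155 for Lpar3, 0.00259 for Lpar6, 0.0057 for Plpp3 and 0.00724 for Enpp2, and from 0.157 to 0.655 for Lpar4, Lpar2 and Lpar5. Between day 7 and day 14 Lpar3 and Plpp3 were called, both lower, and between day 14 and day 21 only Lpar1. From day 21 on, edgeR called no member between neighbouring days, and DESeq2 none either. At an unadjusted p below 0.05 edgeR held 1 (Enpp2, day 28 against day 21) and then 0 and 0. That Enpp2 difference rested on day 28 replicate 10, being 0.39 ± 0.12 with it and 0.14 ± 0.08 without the 2 libraries with fat markers (adjusted p = 0.643). Of all genes, 0.727%, 1.27% and 0.0% were called at these steps.

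Among the members themselves, within-group deviations over the 75 mice were closest for Lpar3 and Plpp3 (r = 0.63) and for Enpp2 and Plpp3 (r = 0.55), and Lpar1 went against Lpar3 (r = -0.42). These are descriptions, and the values share library depth and scaling. The 2 genes most like each member among 13807 candidates were found by the same measure. For Lpar3 they were Cbr2 (r = 0.91), a lung carbonyl reductase of club cells, and Dixdc1 (r = 0.90), and for Plpp3 Gria1 (r = 0.84), a glutamate receptor subunit, and Gsn (r = 0.83), the actin-severing protein gelsolin. For Enpp2 they were the lipid genes Dgat2 (r = 0.80) and Acsl1 (r = 0.80), which make triglycerides and activate fatty acids. These fell to 0.59 and 0.57 without the 2 mice farthest from the median of Enpp2. Lpar1 was closest to Tmem38b (r = 0.76), an intracellular cation channel, and Fkbp5 (r = 0.75), a glucocorticoid-induced chaperone that was itself higher on day 14 by 1.90 (log2, adjusted p = 1.63e-06). The likeness was weaker for Lpar2 (Eif4g3, r = 0.62, and Ptprj, r = 0.61), Lpar5 (Tmem131l, r = 0.60, and Themis2, r = 0.59), Lpar6 (Nnat and Rfesd, both r = 0.59) and Lpar4 (Zfp943, r = 0.55, and Krr1, r = 0.53).

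Related genes are described by their counts, with no test of a list as a whole, and are to be read beside the 32.4% of all genes called higher and 29.9% called lower on day 14. For LPA production the shares were near these. Of 10 listed genes, Enpp2 among them, 9 were tested, and on day 14 there were 4 higher, 3 lower and 2 not called, with a median log2 fold change of -0.18 (0.01 over all genes). While Enpp2 was lower, Pla1a was higher, from 2.42 ± 0.634 CPM in CTRL (mean ± SD) to 29.98 ± 22.95 on day 14, a log2 fold change of 3.62 ± 0.44 (adjusted p = 8.1e-11), and it was called on all 6 days. Pla1a encodes a secreted phospholipase A1 that makes lysophosphatidylserine, which autotaxin can turn into LPA. Ddhd1, an intracellular phospholipase A1 of phosphatidic acid, rose by 0.62 ± 0.11 on day 14 (adjusted p = 6.76e-07) and was called on all 6 days. Liph, a membrane-bound phospholipase A1 that makes LPA from phosphatidic acid, rose by 0.23 ± 0.10 (adjusted p = 0.0423) and was called on 4 days.

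On the side of breakdown, the other phosphatases went both ways. Of 13 listed genes of LPA breakdown and acylation, Plpp3 among them, 12 were tested, with 4 higher, 3 lower and 5 not called on day 14 and a median of 0.09. Plpp2, a related membrane phosphatase, rose from 18.3 ± 1.19 to 26.03 ± 4.62 CPM on day 14 (0.51 ± 0.08, adjusted p = 4.82e-08), and Plpp5 from 20.2 ± 1.28 to 28.0 ± 4.4 CPM (0.47 ± 0.08, adjusted p = 6.05e-07). Both started far below the 349 ± 34.9 CPM of Plpp3. Acp6, a mitochondrial LPA phosphatase, and Plpp6, a phosphatase of isoprenoid diphosphates, fell like Plpp3, by 0.31 ± 0.07 and 0.14 ± 0.06 (adjusted p = 0.000107 and 0.0365, named after their values were seen). Plpp1 had a log2 fold change of -0.21 ± 0.11 (adjusted p = 0.0972), and Plpp4 was too low to be tested. Lclat1, a lysophospholipid acyltransferase, rose by 0.79 ± 0.11 (adjusted p = 4.81e-09).

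Of the Enpp2 relatives, 5 of 6 were tested, with 1 higher and 4 lower on day 14 and a median of -0.53. Enpp1, which makes pyrophosphate from nucleotides, rose by 1.47 ± 0.20 (adjusted p = 3.21e-09), whereas Enpp3, Enpp4 and Enpp5 fell by 0.61 ± 0.20, 0.57 ± 0.09 and 0.53 ± 0.09 (adjusted p = 0.00529, 7.6e-08 and 5.25e-07). The receptors of sphingosine 1-phosphate, the lysophospholipid closest to LPA, also went both ways, with 2 of 5 higher and 3 lower on day 14 (median -0.36). S1pr5, S1pr4 and S1pr1 fell by 1.53 ± 0.31, 0.86 ± 0.16 and 0.36 ± 0.10 (adjusted p = 1.73e-05, 3.34e-06 and 0.000945), and S1pr2 rose by 0.43 ± 0.07 (adjusted p = 6.46e-07). Of 7 genes of S1P metabolism 2 were higher and 1 lower (median 0.13). Sgpl1, the S1P lyase, rose by 0.91 ± 0.10 (adjusted p = 1.82e-11) and Sphk1, an S1P-producing kinase, by 0.62 ± 0.22 (adjusted p = 0.0128), and the phosphatase gene Sgpp2 fell by 0.65 ± 0.20 (adjusted p = 0.00442).

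The P2Y-related receptors are the kin of LPA4, LPA5 and LPA6. Of 11 listed genes 10 were tested, with 7 higher and 2 lower on day 14 (median 0.91) and 5 higher and none lower on day 42 (median 0.56), when 13.7% of all genes were called higher and 11.0% lower. P2ry13, P2ry6 and P2ry12, receptors of nucleotides, rose by 1.46 ± 0.21, 1.37 ± 0.14 and 1.18 ± 0.20 on day 14 (adjusted p = 1.13e-08, 1.14e-12 and 5.35e-07), and Ptafr, the receptor of platelet-activating factor, by 1.44 ± 0.16 (adjusted p = 1.35e-11). These 4 genes are known from macrophages and related cells. All 8 genes of the monocyte-derived macrophage list were called higher on day 14, with a summed level of 704 to 917 CPM in CTRL and 2512 to 12686 CPM on day 14 and none at 0, and their part in the receptor values was not tested.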

How the data were processed

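Libraries had been made from RNA of the inferior lobe of the right lung with a directional kit and sequenced as single reads. The deposited values are raw read counts per gene, which the authors obtained after aligning reads to GRCm38 with STAR 2.7.0f and Ensembl 96 genes. The counting program and its strand setting are not given in the sources used here. From these counts, genes with low counts were removed (filterByExpr), libraries were scaled by trimmed mean of M values, and 7 group means were fitted over all 75 mice with the quasi-likelihood F test of edgeR 4.0.16 in R 4.3.3. P-values were Benjamini-Hochberg adjusted over 16221 genes, with a threshold of 0.05. CPM and RPKM were computed from the scaled library sizes and exon lengths of the annotation. Correlations used log2 CPM (prior count 2) after subtraction of group means, with permutations within groups. Alternatives were DESeq2 1.42.0, other scalings and filters, fits of the compared groups alone, replicate blocks and 75 refits that each left out 1 mouse. The p-values measure the spread between mice. Members and lists were chosen with earlier results of these data known. Besides the members, the text names for each pathway list up to 4 genes called on day 14 with the largest absolute log2 fold change, and the 2 genes most like each member. Some genes downstream of the receptors are not reported here.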

Additional observations from a re-analysis of the deposited data

Results flagged for a closer look

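In the group of day 7, Lpar1 was 69.4 CPM in replicate 5, and the gap to the next mouse was 0.537 of the group's range in log2 CPM. This was 1 of 24 groups examined for such a gap, and chance gives about 1 in 20, so that 1 flag is about what chance gives. The 24 did not cover every member in every group. Enpp2 on day 28, with 310.4 CPM in replicate 10 and at most 122 in the other 11 mice, was not flagged. The change of Lpar1 against CTRL differed between day 42 and day 14 by -0.98 (adjusted p = 2.32e-07), and that of Lpar3 by 0.99 (adjusted p = 0.000692).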

How the results depend on the processing

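Of 28 calls against CTRL, 22 held under all 7 alternatives that tested them, and no member's called direction turned. Requiring 10 counts in every mouse left 5 members called on day 14, since Lpar4 and Lpar5 were then not tested and the call of Lpar6 was lost. Fits of the compared groups alone gave 4 on day 35, and the cause was not tested. More genes of all kinds were called in that fit too, 5562 of 15019 against 4853 of 16221. Leaving out 1 mouse at a time gave 4 to 5 members on day 7, 6 to 8 on day 14, 4 to 6 on day 21, 3 to 4 on day 28, 2 to 5 on day 35 and 3 to 4 on day 42, with 2 to 3 between days 42 and 14. Lpar4 and Lpar5 had the fewest reads, which limits their precision. Calls that changed were those of Lpar6 on day 14, Lpar5 on days 14 and 21, Lpar4 on days 7 and 21 and Enpp2 on day 42 (lost), and of Lpar3 on days 35 and 42, Lpar1 on day 42, Enpp2 on days 28 and 35, Lpar4 and Lpar5 on day 35 and Lpar6 between days 42 and 14 (gained). On day 35, leaving out day 35 replicate 4 gave the count of 5, with Lpar3 (adjusted p = 0.0492), Lpar4 (0.0391) and Lpar5 (0.044) called, and Lpar5 was also called without CTRL replicate 1 or 6 (0.0468 and 0.0481).

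With the replicate number as a block, 5, 8, 6, 3, 3 and 3 members were called on days 7 to 42. The block took the Enpp2 call of day 42 (adjusted p = 0.0712) and gave one for Lpar3 on day 35 (0.0297) and for Lpar6 between days 42 and 14 (0.0468). Same-numbered mice did not deviate together as a rule (204 pairs, correlation -0.615 to 0.685, median 0.0154). Of 408 comparisons of a mouse with another group, 49 were highest with its own number. With the block, 3354 of all genes were called between days 7 and 14, against 2763, but 23 between days 21 and 28, against 118. Whether libraries of the same number share an effect was not tested.

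Between days 14 and 21, 167 genes were called, against 293 by DESeq2, 85 without a filter, 0 in the 2 groups alone and 109 with the block. Between days 21 and 28 it was 118, against 31 with 10 counts, 1 in the 2 groups alone and 23 with the block, and between days 28 and 35 206, against 313 by DESeq2, 41 with 10 counts and 0 in the 2 groups alone. Scaling by library size gave 1204 higher and 1632 lower genes from day 7 to day 14, against 1538 and 1225, and 66 and 31 from day 21 to day 28, against 67 and 51.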
